A study of Bos indicus with 6 samples.

Results

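The genes described here are 3 identifiers of the deposited endometrial expression table, chosen because they are given as ACTB (ENSBTAG00000026199), GAPDH (ENSBTAG00000014731) and YWHAZ (ENSBTAG00000000236), names that are widely used as reference genes. They are 3 of the 24616 Ensembl cattle gene identifiers in the table. RNA came from the endometrium, the lining of the uterus, of 6 healthy multiparous Nelore (Bos indicus) cows slaughtered on day 7, counting GnRH treatment as day 0. All cows had been presynchronized and had received a progesterone-releasing device with estradiol benzoate on day -10. The LF-LCL regimen, aimed at a large follicle and a large corpus luteum (CL), added cloprostenol, a prostaglandin analogue, on day -10, and its devices were withdrawn 42 to 54 hours before GnRH. The SF-SCL regimen, aimed at a small follicle and a small CL, had no cloprostenol on day -10, and its devices were withdrawn 30 to 36 hours before GnRH. Both regimens received cloprostenol at device withdrawal and GnRH on day 0, and 3 cows were sequenced from each. The sequenced cows belonged to trial arms of 35 (LF-LCL) and 39 (SF-SCL) animals.

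ACTB encodes beta-actin, which polymerises into the filaments of the cytoskeleton. GAPDH encodes glyceraldehyde-3-phosphate dehydrogenase, an enzyme of glycolysis. YWHAZ encodes 14-3-3 zeta, an adaptor protein that binds phosphorylated signalling proteins. All are used as internal references in RT-qPCR, where the level of a target gene is divided by that of a reference on the assumption that the reference is equal in the samples compared. The endometrium changes its cell growth, secretion and metabolism under estradiol and progesterone, the hormones that these regimens were set up to shift.

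The values are normalised read counts, that is, reads assigned to a gene divided by 1 size factor per library. Whole reads were recovered from them, and the libraries held 2896663 to 7811332 reads. The names could not be paired with the identifiers independently. All 3 symbols occur in the RefSeq gene table of a Bos indicus assembly, but 0 of the 3 identifiers do, because that table holds no Ensembl identifiers. For the same reason the tissue label could not be checked against marker genes, and members of the same families and pathways could not be measured. ACTB has near-identical paralogs and GAPDH is known for processed pseudogenes. The sources used here do not give how reads that fit several copies were counted, so the absolute levels are uncertain in that respect.

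The identifier given as YWHAZ had almost no reads. ENSBTAG00000000236 held 1 read in LF-LCL replicate 1, a normalised read count of 0.562, and none in each of the other 5 libraries. Over all 29128120 reads, that is 0.0343 CPM (reads per 1000000 reads; exact Clopper-Pearson 95% interval 0.000869 to 0.191, which covers counting error only). A count of 0 leaves room for up to 3 reads, which in these 5 libraries corresponds to a normalised value of 2.18 to 4.64. Among the 24616 identifiers, 9148 had no read in any library and a further 1231 had exactly 1. YWHAZ is known as a broadly and strongly expressed gene, so this row goes against the name given to it. What the identifier stood for in the annotation the authors used, and whether its reads were counted under another identifier, were not tested. The row did not pass the filter on low values (a mean of at least 1), is not called YWHAZ below, and could serve neither for a test nor for scaling. The levels, differences and ratios that follow are those of ACTB and GAPDH.

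Both ACTB and GAPDH were read abundantly in every cow, and both had their lowest value in LF-LCL replicate 3. ACTB ranked 20 by mean normalised read count among all identifiers and took 0.204% of normalised reads. GAPDH ranked 223 and took 0.0581%. These ranks count reads, not reads per transcript length, so they do not order the genes by number of transcripts.

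The normalised read counts of ACTB in LF-LCL were 8395 in replicate 1, 9228 in replicate 2 and 7209 in replicate 3. In SF-SCL they were 11399, 8713 and 10022. The groups overlapped, because SF-SCL replicate 2 lay below LF-LCL replicate 2. The LF-LCL cows averaged 8277 ± 1015 (SD, n = 3), whereas the SF-SCL cows averaged 10044 ± 1343 (SD, n = 3). Each value rested on 5123 to 14932 reads of ACTB, so that counting alone gives a coefficient of variation of at most 1.40% in a library. Among the LF-LCL cows the observed coefficient of variation was 12.3%, and among the SF-SCL cows 13.4%, well above that counting error.

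For GAPDH the LF-LCL cows had normalised read counts of 2395, 2419 and 2137 in replicates 1 to 3. The SF-SCL cows had 2790, 2617 and 3325. Here every LF-LCL cow lay below every SF-SCL cow, and SF-SCL replicate 3 stood highest. Such a separation, in this direction, was found for 11.0% of the 12535 genes tested and in either direction for 22.8%, so it does not set GAPDH apart from the tissue at large. The LF-LCL mean was 2317 ± 156 (SD, n = 3), and the SF-SCL mean was 2911 ± 369 (SD, n = 3). The values rested on 1519 to 4260 reads, a counting error of at most 2.57%. The coefficient of variation among cows was 6.74% in LF-LCL and 12.7% in SF-SCL.

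**Figure D1:**
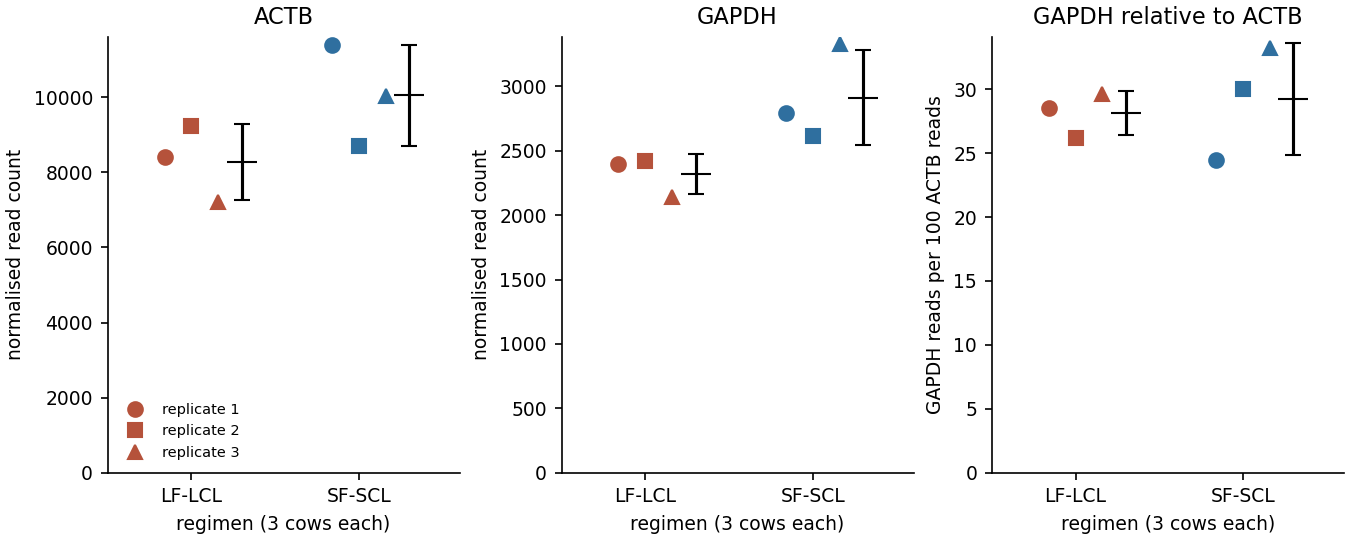
Normalised read counts of ACTB (left) and GAPDH (middle) and the number of GAPDH reads per 100 ACTB reads (right) in each of the 3 cows per regimen; marker shape gives the replicate, and the black bar and whiskers beside them the group mean and SD. The ACTB values of the regimens overlap, the GAPDH values do not (2137 to 2419 in LF-LCL, 2617 to 3325 in SF-SCL), and the ratio overlaps.

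Neither gene was called different between the regimens, and both had lower fitted levels in LF-LCL. The fitted level of ACTB in SF-SCL was 1.21-fold that in LF-LCL, with a 95% interval from 0.925-fold to 1.59-fold. Its log2 difference (LF-LCL minus SF-SCL, on log2 of the value plus 1) was -0.28 with a standard error of 0.170 (limma, unadjusted p = 0.14, adjusted p = 0.464). For GAPDH the fitted level in SF-SCL was 1.25-fold that in LF-LCL, and its interval ran from 1.02-fold to 1.54-fold. Its log2 difference was -0.32 with a standard error of 0.130 (limma, unadjusted p = 0.0364, adjusted p = 0.259). Of all genes tested, 0.965% were called at an adjusted p under 0.05. An unadjusted p under 0.05 was found for 17.1% of genes, and for 7.76% with a lower level in LF-LCL, so the unadjusted value of GAPDH is shared by many genes. The intervals do not show that the genes were equal either: levels up to 1.59-fold (ACTB) and 1.54-fold (GAPDH) higher in SF-SCL lie within them. In tissue pieces, fewer cells of a type and less RNA per cell cannot be told apart. By an exact permutation test over cows (two-sided), p was 0.2 for ACTB and 0.1 for GAPDH, where 0.1 is the smallest that 3 against 3 allows.

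Under TMM factors, upper quartile factors and total reads ACTB kept its direction, but its separation between the regimens changed. With upper quartile factors the ACTB values were 7158 to 8887 in LF-LCL and 8956 to 11598 in SF-SCL, and the groups no longer overlapped. With total reads as the scale they were 7155 to 8596 and 8988 to 11716, again without overlap. Separation in this direction was found for 13.0% and 13.7% of all genes under these scalings. With TMM factors the ACTB values overlapped, as on the deposited scale. GAPDH was lower in every LF-LCL cow under all of these scalings, TMM included (10.6% of all genes), and its largest difference was with total reads (log2 difference -0.38; limma, adjusted p = 0.165). On that scale ACTB had 1800 ± 181 CPM (SD, n = 3) under LF-LCL, against 2281 ± 306 CPM (SD, n = 3) under SF-SCL. GAPDH had 505 ± 37.4 CPM (SD, n = 3) under LF-LCL, against 660 ± 73.8 CPM (SD, n = 3) under SF-SCL.

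Single cows weighed on the size of these differences. Without SF-SCL replicate 3, the cow with the most GAPDH, the log2 difference of GAPDH was -0.22 and its interval included 0 (-0.52 to 0.07). The interval also included 0 without LF-LCL replicate 1, LF-LCL replicate 3 or SF-SCL replicate 1. For ACTB the log2 difference was -0.18 without LF-LCL replicate 3, its lowest cow, and also -0.18 without SF-SCL replicate 1, its highest. ACTB was -0.38 without SF-SCL replicate 2. Neither gene changed direction, and neither was called, when any 1 of the 6 cows was left out. These fits called 0% to 2.95% of genes. Without LF-LCL replicate 2 or SF-SCL replicate 2 no gene at all was called, so the lack of a call there sets neither gene apart.

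**Figure D2:**
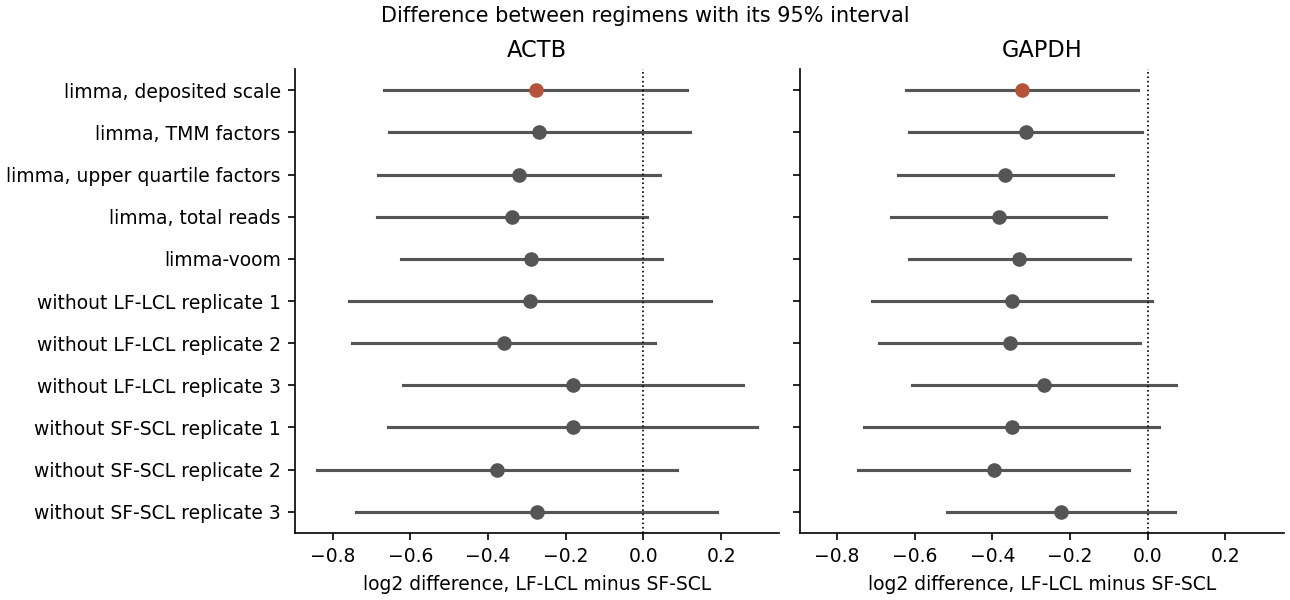
Log2 difference (LF-LCL minus SF-SCL) of ACTB and GAPDH with its 95% interval, under the deposited scale (red), other scalings, limma-voom and with 1 library left out. Every point lies below 0; on the deposited scale the interval of ACTB includes 0 (-0.67 to 0.11) and that of GAPDH ends at -0.03.

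The spread of ACTB and GAPDH over the 6 libraries was like that of other abundant genes rather than low. The SD of log2 values was 0.226 for ACTB and 0.219 for GAPDH, and counting alone gives 0.0156 and 0.0291. From the lowest to the highest cow, ACTB varied 1.58-fold and GAPDH 1.56-fold. Of the other 12534 tested genes, 31.0% had a smaller SD than ACTB and 29.7% a smaller SD than GAPDH, but those shares include rare genes with large counting error. Among the 73 genes whose mean lay within 2-fold of ACTB, 29 had a smaller SD, and their median was 0.256 (quartiles 0.193 and 0.399). Among the 596 genes within 2-fold of GAPDH, 291 had a smaller SD, around a median of 0.221 (quartiles 0.135 and 0.365). The least variable of these 596 had an SD of 0.0405. Without SF-SCL replicate 3 the SD of GAPDH was 0.145.

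Within the regimens the picture was similar. The SD pooled within groups was 0.187 for ACTB, with 34 of its 73 neighbours in abundance below it, and 0.145 for GAPDH, with 238 of 596 below. The difference between regimens was also ordinary for abundant genes. A smaller absolute log2 difference was found for 30 of the 73 neighbours of ACTB and for 371 of the 596 neighbours of GAPDH. Groups that did not overlap, in either direction, were seen in 54.8% of the neighbours of ACTB and 39.3% of those of GAPDH. These shares describe the libraries and are no test, since the genes share the same cows.

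**Figure D3:**
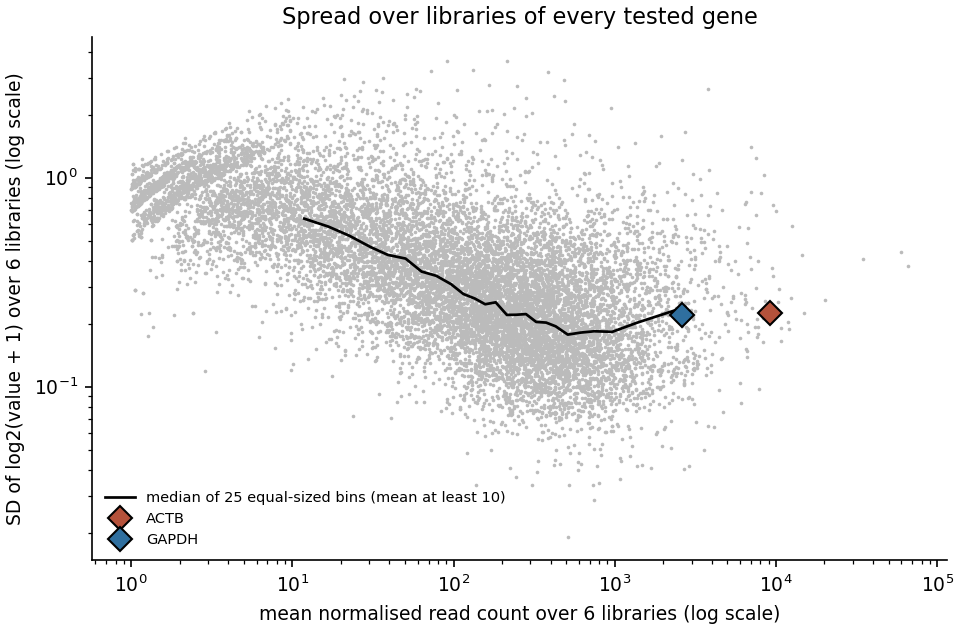
SD of log2(value + 1) over the 6 libraries against the mean normalised read count, both on log axes, for each of the 12535 tested genes (grey); the black line is the median in 25 bins of equal gene number for genes with a mean of at least 10. GAPDH (SD 0.219) sits on the line's upper end and ACTB (SD 0.226) lies beyond it, among genes with both smaller and larger SDs.

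The ratio of GAPDH to ACTB had a smaller spread than either gene over all 6 libraries, but not within SF-SCL. The ratio needs no scaling between libraries, and its level also depends on transcript length. In LF-LCL there were 28.5, 26.2 and 29.7 GAPDH reads per 100 ACTB reads in replicates 1 to 3. In SF-SCL there were 24.5, 30.0 and 33.2. Both the lowest and the highest ratio were in SF-SCL, so the LF-LCL range lay inside the SF-SCL range. The LF-LCL mean was 28.1 ± 1.75 (SD, n = 3), and SF-SCL averaged 29.2 ± 4.40 (SD, n = 3). The log2 ratio differed by -0.05 between the regimens (exact permutation test, two-sided, p = 0.8). The interval of that difference, from GAPDH scaled to ACTB in limma, was -0.46 to 0.37, so unequal change of up to 1.38-fold in SF-SCL is within it. Over the 6 libraries the SD of the log2 ratio was 0.155, and with only 1 usable pair this is also the geNorm stability value M (the mean SD of a gene's log2 ratios to the other references) of both genes. The SD of the log2 ratio was 0.0909 in LF-LCL, below that of ACTB (0.180) and GAPDH (0.0992) there. In SF-SCL it was 0.224, above that of ACTB (0.194) and GAPDH (0.179). The SD of GAPDH pooled within groups (0.145) leaves out the difference between regimens, so it cannot be set against the SD of the ratio over all libraries. An even ratio does not show that either gene was steady, because genes that vary together keep their ratio.

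Most genes with a mean of at least 100 followed each reference less closely over the 6 cows than the references followed each other. A minority followed more closely, which is likely with so many genes and 6 libraries. The Pearson correlation of ACTB with GAPDH was 0.759 on log2 values over 6 libraries. Of the 6588 other genes with a mean of at least 100, 487 (7.39%) were closer to ACTB than GAPDH was, and 459 (6.97%) were closer to GAPDH than ACTB was. The median correlation over the 6589 genes compared was -0.057 with ACTB and -0.071 with GAPDH. The closest to ACTB was ENSBTAG00000017382 (correlation 0.997), with normalised read counts of 389, 440 and 300 in LF-LCL and 652, 396 and 523 in SF-SCL. The closest to GAPDH was ENSBTAG00000021381 (correlation 0.997), with 211, 216 and 179 in LF-LCL and 284, 256 and 417 in SF-SCL. Both of these genes varied more than the reference they followed, with SDs of 0.385 and 0.427. Each is the highest of 6589 correlations over 6 libraries that share depth and scaling, and the value is a description only. Neither was called between the regimens (limma, adjusted p = 0.308 and 0.161).

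Used as the scale, ACTB and GAPDH moved the whole transcriptome. Each library was divided by the geometric mean of ACTB and GAPDH in place of its size factor, as is done with RT-qPCR values. The factor from both genes departed from the deposited size factor by -0.11, -0.04 and -0.30 (log2) in LF-LCL replicates 1 to 3 and by 0.22, -0.02 and 0.25 in SF-SCL replicates 1 to 3. The most extreme libraries were therefore LF-LCL replicate 3 and SF-SCL replicate 3, which stood 1.47-fold apart. Those that departed most also held the fewest reads: LF-LCL replicate 3 (3219678), SF-SCL replicate 1 (3363191) and SF-SCL replicate 3 (2896663). The other libraries held at least 5844269. Whether sequencing depth bears on the departures was not tested. TMM factors, for comparison, stayed within 1.02-fold of each other relative to the size factors. With reference-gene scaling, a gene that was equal on the deposited scale came out 1.23-fold higher in LF-LCL. The same value was 1.21-fold with ACTB alone and 1.25-fold with GAPDH alone.

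**Figure D4:**
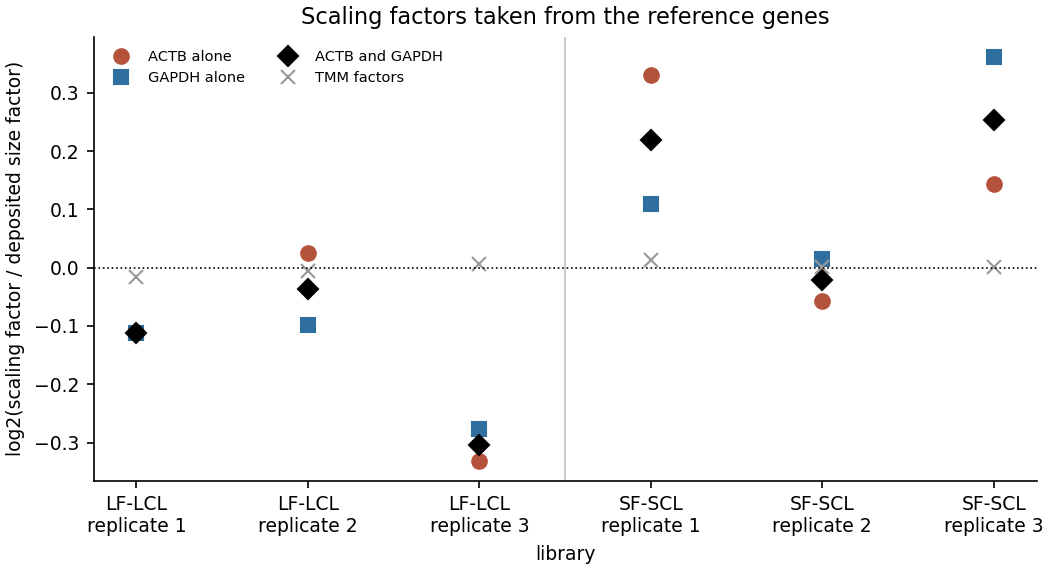
Log2 ratio of the scaling factor taken from ACTB alone, GAPDH alone or their geometric mean to the deposited size factor in each library, with TMM factors for comparison; 0 means the same factor. The factors from both genes lie below 0 in the 3 LF-LCL libraries (-0.04 to -0.30) and above 0 in SF-SCL replicates 1 and 3 (0.22 and 0.25), with SF-SCL replicate 2 at -0.02.

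More genes were called on the reference-gene scale, and nearly all of the additional calls were higher in LF-LCL. A shift in that direction is built into the scale. The factor from both genes departed from the size factor by a mean log2 of -0.15 in LF-LCL and 0.15 in SF-SCL. It rests on differences of ACTB and GAPDH that were not called themselves. On the deposited scale the calls were 84 higher and 37 lower in LF-LCL. After scaling to ACTB and GAPDH together limma called 817 of 12548 genes (6.51%), 769 higher and 48 lower. With ACTB alone the calls were 427 higher and 48 lower (3.78%), and with GAPDH alone 995 higher and 55 lower (8.37%). The share of calls that were higher in LF-LCL rose from 69.4% on the deposited scale to 94.1% with both genes. The median log2 difference over all genes moved by 0.29 with both genes, from -0.01 to 0.28.

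The calls on the deposited scale were partly retained. With both reference genes 84 of the 84 higher genes and 20 of the 37 lower genes stayed called in the same direction, and the other 17 lower genes were not called. These 104 shared calls are 86.0% of the calls on the deposited scale and 12.7% of those on the reference-gene scale. The 713 additional calls (685 higher and 28 lower) had a median log2 difference of 0.58 on the deposited scale, where 692 of them had an unadjusted limma p under 0.05. On the reference-gene scale their median was 0.88. None of the 37 lower genes was called higher after rescaling. The scale raises the log2 difference of all but rare genes by nearly the same amount. The rise of the median and the losses among lower rather than higher calls follow that direction and are no separate result.

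The counts of calls depended on the cows under either scale. On the deposited scale, limma called 370 genes without SF-SCL replicate 3 and at most 12 without any other cow, against 121 with all 6. On the scale of both reference genes the count was 116 without SF-SCL replicate 1, the cow with the most ACTB, and 361, 433 and 370 without LF-LCL replicates 1, 2 and 3. Without SF-SCL replicates 2 and 3 it was 689 and 651. In each fit on the reference-gene scale the calls higher in LF-LCL outnumbered the lower ones. The median standard error of a log2 difference was 0.276 with both reference genes and 0.245 with the deposited size factors. Counts also depended on the method. On recovered reads not scaled to the reference genes, DESeq2 called 689 of the 15468 genes with any read (4.45%). That count is above the 475 of 12551 that limma called with ACTB alone. On the recovered reads edgeR with TMM called 85 of 10177 genes (0.835%) and limma-voom 137 of 10177 (1.35%). These shares rest on unlike gene sets.

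**Figure D5:**
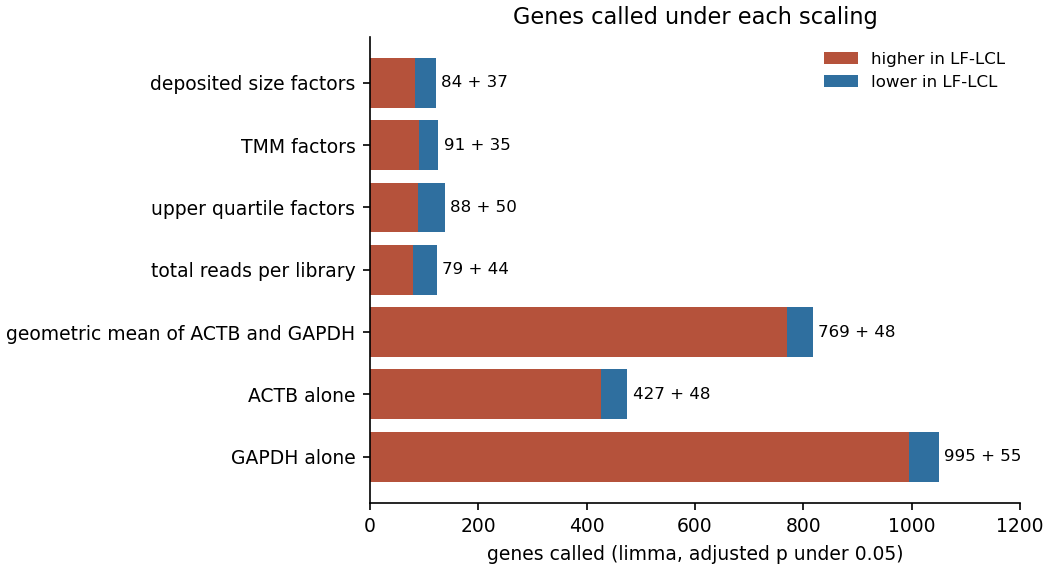
Number of genes called between the regimens (limma, adjusted p under 0.05) under 7 scalings of the same 6 libraries, divided into genes higher (red) and lower (blue) in LF-LCL, with both counts printed beside each bar. With limma, the 4 scalings that use many genes or all reads give 121 to 138 calls. The 3 that use ACTB or GAPDH give 475 to 1050 calls, nearly all higher in LF-LCL. DESeq2 on the recovered reads, not drawn here, called 689.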

How the data were processed

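Endometrial RNA of 6 cows was sequenced. The deposited signal per gene is a number of reads over 1 size factor per library; this was read from the values, of which 100% were whole multiples of the smallest in their column (within 0.01 reads). The submitters' processing notes list, without roles, DESeq 1.12.1, HTSeq 0.5.4p2, SAMtools 0.1.18, Bowtie2 2.1.0 and CASAVA 1.8.2. Build, annotation and strand setting: not given in the sources used here.

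Genes with a mean of at least 1 were tested with limma 3.58.1 (R 4.3.3; log2(value + 1), mean-variance trend, group as only term, Benjamini-Hochberg over all genes, threshold 0.05). Recovered reads were refitted with edgeR 4.0.16, DESeq2 1.42.0 and limma-voom. The scripts were tested on simulated data. Precision is limited by 3 cows per group, with no batch labels. The members and lists were chosen with earlier results of these data known. Planned use of all 3 members for scaling and 3 ratios was reduced to ACTB and GAPDH after the file was seen. The naming rule took the members and, lacking a name table, the closest identifier of each; the gene lists and cell markers were not tested. No sequence was at hand.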

Additional observations from a re-analysis of the deposited data

How the results depend on the processing

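In the 18 alternatives that did not scale to ACTB or GAPDH, both genes kept their direction and neither was called (GAPDH: log2 difference -0.40 to -0.22, adjusted p 0.165 to 0.467; ACTB: -0.38 to -0.18, adjusted p 0.302 to 0.786). These 18 alternatives called 0% to 4.45% of the genes each one tested, over gene sets of unlike size. The lack of a call says little where almost no gene was called. Scaled to the members themselves, values restate the ratio: ACTB was at 0.0229 with the geometric mean of ACTB and GAPDH and at 0.0458 when scaled to GAPDH. Without 1 library the log2 difference was -0.38 to -0.18 for ACTB and -0.40 to -0.22 for GAPDH. The difference in the GAPDH to ACTB ratio, -0.05, had no stable sign: leaving out 1 library gave -0.17 to 0.0512, the latter without SF-SCL replicate 3, and 0.0041 without LF-LCL replicate 2. The SD of GAPDH was 0.145 to 0.245 without 1 library, with the lowest value without SF-SCL replicate 3, and the SD of ACTB stayed within 1.5 times its value. The 817 calls on the scale of both genes became 475 with ACTB alone, 121 with the deposited size factors, 1598 at an adjusted p under 0.1 and 116 to 689 without 1 library. The 1598 calls belong to a looser threshold, and the 121 calls to a scale without the shift built into the reference-gene scale. Why the count moved so far in the other settings was not tested. The scalings with all 3 members, with the other 2 members and with the third identifier alone were not run, since that identifier was at 0 in 5 libraries. No paired analysis was possible because the replicates were numbered by accession, which pairs no cow with another. The third identifier had 1 read over all libraries, and why it had so few was not tested. For ACTB and GAPDH the counting error was small beside the spread between cows.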
